A study of Bos taurus with 13 samples.

Results

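Muscle miRNAs were followed in the extracellular vesicles (EVs) of bovine follicular fluid, the fluid that surrounds the oocyte in the antral follicle. The members were chosen by name: miR-1 (bta-miR-1 in the files) and miR-145 (bta-miR-145), together with miR-133a and miR-143, which lie next to them in the genome. All 4 were listed in all 13 libraries, among 311 miRNAs listed for any group and 262 listed for all 5 groups. Each library was made from a pool of follicular fluid that was taken by ovum pick-up from large follicles of Holstein-Friesian animals. Transient cows (TCs) had a negative energy balance early in lactation and a positive one later, and they gave 3 pools from 11 cows at weeks 5 and 6 after calving and 3 pools from 7 cows at weeks 9 and 10. Always negative cows (ANCs) and always positive cows (APCs) were sampled at weeks 5 and 6, each as 2 pools from 2 cows. Heifers, which had not calved and served as controls, gave 3 pools from 8 animals. All cow groups therefore differ from heifers in calving and lactation. TCs at weeks 5 and 6 and ANCs, which were in negative energy balance when sampled, differ from them in energy balance as well. Which animals went into which pool is not stated in the sources used here, so p-values measure the spread between pools and not between animals.

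miRNAs are short RNAs that lower the output of messenger RNAs carrying matching sites, and EVs carry them from cell to cell. miR-1 and miR-133a are made in cardiac and skeletal muscle, where they act in myocyte differentiation and proliferation. miR-143 and miR-145 are made together in smooth muscle, vessel wall and fibroblasts, where they maintain the contractile state. The follicle has a vascularised theca layer that holds smooth muscle cells, and granulosa cells also contain miR-143 and miR-145.

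The pairing of these genes was visible in the RefSeq bovine annotation (ARS-UCD2.0). MIR143 and MIR145 lie next to each other, with 0 other genes starting between them. MIR1-1 lies next to MIR133A-1 in the same way, and MIR1-2 next to MIR133A-2. miR-1 and miR-133a thus each have 2 gene copies, and reads of the mature miRNA cannot be assigned to either copy. miR-1 also belongs to the same family as miR-206, and whether any reads of these 2 miRNAs were assigned to the other was not checked.

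The libraries held 145030 to 421435 reads assigned to miRNAs. Levels are given as CPM, the read count of a miRNA scaled to library size, with all 13 libraries scaled together unless another scaling is named. No length correction was made, since mature miRNAs are of nearly the same length. A miRNA counted 3 times in a library stood at 7.91 to 18.96 on the deposited scale. The smooth muscle pair was far more abundant than the striated muscle pair. miR-143 ranked 5th to 14th of the listed miRNAs and took 1.84% to 4.11% of the reads of a library. miR-145 ranked 56th to 96th with 168 to 1014 reads, and miR-1, which never ranked above the 103rd place, had 59 to 296 reads. miR-133a had only 3 to 23 reads in a library and ranked 171st to 255th. The striated muscle label was therefore carried by miR-1, while its genomic neighbour miR-133a was close to the lower limit of what could be counted.

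miR-1 was lower in cow pools than in heifer pools. The 3 TC pools of weeks 5 and 6 held 254, 282 and 244 CPM of miR-1 in replicates 1 to 3. The 3 TC pools of weeks 9 and 10 held 156, 276 and 223 CPM. The 2 ANC pools held 234 and 428 CPM, and the 2 APC pools 329 and 261 CPM. The heifer pools held 484, 452 and 798 CPM, so that all 10 cow libraries were below the lowest heifer library. This remained so with total reads as the scale and with the deposited values. The second ANC pool was the highest of the cow libraries, and the third heifer pool stood well above the other heifer pools.

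**Figure D1:**
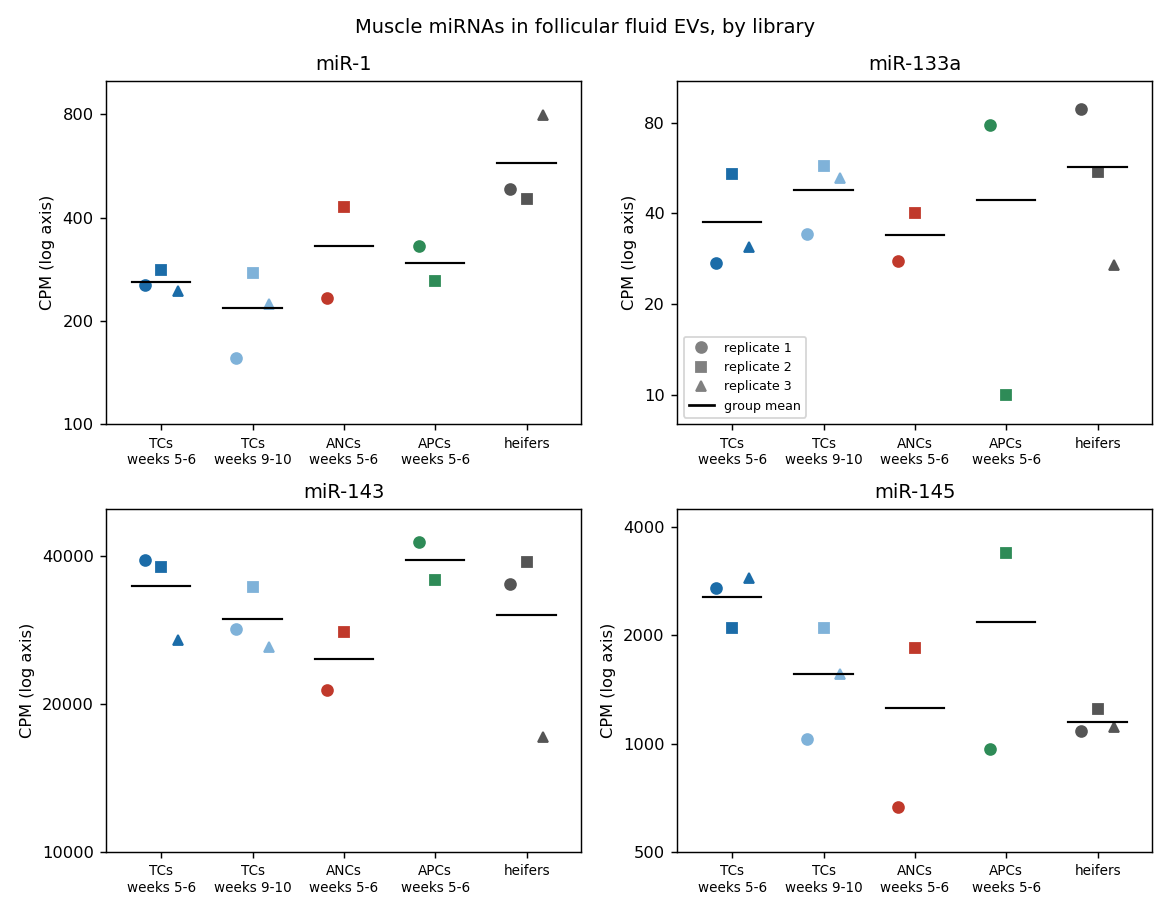
CPM of miR-1, miR-133a, miR-143 and miR-145 (log axes) in the 13 libraries of 5 groups, with 1 point per pool and a line at the group mean. All 10 cow libraries lie between 156 and 428 CPM of miR-1 and all 3 heifer libraries between 452 and 798 CPM, whereas the 3 TC pools of weeks 5 and 6 lie above the heifer pools for miR-145.

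Over all cow groups, miR-1 averaged 269 ± 71.8 CPM (SD, n = 10) against 578 ± 191 CPM in heifers (SD, n = 3). A miRNA was called differentially expressed by the thresholds of the study, which are p under 0.05, adjusted p not above 0.25 and a log2 fold change of 1 or more in either direction. All fold changes are differences of log2(CPM + 5), the group named first minus the other. The mean of the 4 cow groups was below heifers by a log2 fold change of -1.05 (SE 0.28, limma adjusted p = 0.123), which was called. An exact two-sided permutation test of the 10 cow libraries against the 3 heifer libraries gave p = 0.0034965, the smallest value this design allows. The TC pools of both times may share cows, so the 10 cow libraries may not be independent. Of the 247 miRNAs tested, 8.1% were called in this comparison, 6.07% as lower in cows, and 4.45% did not overlap between cow and heifer libraries. In bulk EV preparations, fewer vesicles from a cell type and fewer copies per vesicle cannot be told apart.

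The call for miR-1 over all cow pools depended on single libraries. It was lost without the first heifer pool (log2 fold change -1.12, limma adjusted p = 0.2998) and without the second (-1.18, adjusted p = 0.3994). Without the third heifer pool the fold change was -0.80, under the threshold of 1. Leaving out the first ANC pool (-0.91), the second APC pool (-0.95) or the first TC pool of weeks 9 and 10 (-0.99) also brought it under this threshold. The direction was the same in all 13 cases. Within replicate 1, the 4 cow libraries held 156 to 329 CPM and the heifer library 484 CPM, a log2 difference of -1.03. Within replicates 2 and 3, the 6 cow libraries held 223 to 428 CPM and the 2 heifer libraries 452 to 798 CPM, a log2 difference of -1.09. The RNA of replicates 1 was measured on another day than that of replicates 2 and 3, where a day is stated.

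Among the 4 cow groups, the difference was called for TCs at weeks 5 and 6 alone. With these TCs and the heifers scaled together, miR-1 averaged 259 ± 21.2 CPM in TCs and 577 ± 186 CPM in heifers (SD, n = 3 each), a log2 fold change of -1.10 (SE 0.31, limma adjusted p = 0.222). In this comparison 6.96% of the 230 miRNAs tested were called, 5.22% as lower in TCs, and 22.2% did not overlap between the groups. The exact permutation test gave p = 0.1, the smallest value for 3 pools against 3. TCs at weeks 9 and 10 showed a larger log2 fold change of -1.33 (SE 0.35, limma adjusted p = 0.336), which was not called, nor was any other of the 227 miRNAs tested (0%, with 24 at an unadjusted p under 0.05). There, edgeR called 0 miRNAs as well, while DESeq2 called 14, with miR-1 among them (-1.40, adjusted p = 0.04685). Of the 227 miRNAs, 15.4% did not overlap, miR-1 among them. ANCs differed from heifers in miR-1 by -0.72 (95% interval -1.78 to 0.33), which was not called, in a comparison in which 18.6% of 215 miRNAs were called and 47.4% did not overlap. ANC and heifer pools overlapped in miR-1 when only these 2 groups were scaled together. APCs differed from heifers by -0.77 (95% interval -1.75 to 0.21) without overlap, which was not called either, with 12.4% of 233 miRNAs called and 36.1% not overlapping. Scaled by total reads it was -1.35 and on the deposited values -1.12, both called (limma adjusted p = 0.114 and 0.1688), while the median over all miRNAs moved by -0.57 and -0.34 with these scales. All of these comparisons share the same heifer libraries, so they are not independent of each other.

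The call in TCs at weeks 5 and 6 was as fragile. It was lost without the first or the third TC pool (log2 fold change -1.01 and -1.0, limma adjusted p = 0.5373 and 0.3764), without the first or second heifer pool (-1.15 and -1.24, adjusted p = 0.4801 and 0.5035) and without the third heifer pool (-0.85). With a factor for the RNA measurement day, no miRNA was called and miR-1 stood at -1.10 with an adjusted p of 0.3579. With the replicate number as a block, 29 miRNAs were called in place of 16, and the value for miR-1 was -1.10 (limma adjusted p = 0.06995). The labels do not state that pools of the same number belong together. That pairing was inferred from these same data, so the lower adjusted p is not independent support.

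Of the other cell type markers, leukocyte miRNAs and miR-122 were also lower in cow pools. Most miRNAs of the endothelial, epithelial, erythroid and gonad lists were not called. Summed leukocyte miRNAs (miR-223, miR-142-5p, miR-142-3p, miR-150, miR-155 and miR-146a) were at 745 to 4820 CPM in cow pools and 4870 to 6080 CPM in heifer pools, and 5 of 6 were called lower in cows, where 6.07% of all miRNAs were. miR-122, the abundant miRNA of liver and a component of plasma, was at 329 to 5860 CPM in cows and 5370 to 17600 CPM in heifers and was also called. Endothelial miR-126-3p and miR-126-5p, summed, overlapped between cows (930 to 2710 CPM) and heifers (1060 to 1760 CPM), and neither was called. Of the 6 epithelial miRNAs (the miR-200 family and miR-205), 1 was called lower. Summed, they overlapped, with 5140 to 31200 CPM in cows (median 8030) and 14200 to 22200 CPM in heifers (median 15500). Their median log2 fold change was -0.72. Erythroid miR-451 and miR-486 overlapped, with 131 to 11000 CPM in cows and 1720 to 3960 CPM in heifers, and neither was called. Gonadal miR-202 overlapped as well, with 2980 to 8010 CPM in cows and 3410 to 6360 CPM in heifers, and was not called. The part of these cells in the miR-1 difference was not tested.

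miR-133a was called in no comparison. The TC pools of weeks 5 and 6 held 27.4, 54.0 and 30.9 CPM, and those of weeks 9 and 10 held 34.0, 57.4 and 52.5 CPM. The ANC pools held 27.7 and 40.2 CPM, the APC pools 78.9 and 10.0 CPM, and the heifer pools 89.0, 54.9 and 27.0 CPM. The groups overlapped, and the third heifer pool, which was highest for miR-1, was lowest of the heifers for miR-133a. Cow pools averaged 41.3 ± 19.7 CPM (SD, n = 10) and heifers 56.9 ± 31.0 CPM (SD, n = 3), a log2 fold change of -0.45 with a 95% interval of -1.52 to 0.62. A decrease as large as that of miR-1 lies within this interval, so these pools, with 3 to 23 reads each, do not show whether miR-133a differed from miR-1 in this respect.

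The striated muscle list also holds miR-206, miR-499 and miR-208b, whereas miR-133b and miR-208a were not listed for any group. miR-206, which belongs to the miR-1 family and is made in skeletal muscle, was at 13.7, 59.7 and 54.9 CPM in TCs at weeks 5 and 6. It was at 34.0, 64.5 and 10.5 CPM in TCs at weeks 9 and 10. ANCs held 43.6 and 13.4 CPM and APCs 37.7 and 33.4 CPM, while heifers held 98.8, 59.9 and 151 CPM. Thus 9 of 10 cow libraries were below all heifer libraries, the exception being the second TC pool of weeks 9 and 10. Over all cow pools the log2 fold change was -1.48 (SE 0.53, limma adjusted p = 0.159, called), and an exact permutation test gave p = 0.01049. Between ANCs and heifers miR-206 was called as well, at -1.71 (SE 0.60, limma adjusted p = 0.143), where 12.1% of the miRNAs were called as lower. It was not called in TCs at weeks 5 and 6 against heifers (-1.29, limma adjusted p = 0.317). Nor was it called in TCs at weeks 9 and 10 (-1.52, limma adjusted p = 0.388), where no miRNA was. In APCs against heifers no miRNA of the striated muscle list was called. These values rest on 2 to 21 reads per cow library and 20 to 56 reads per heifer library.

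miR-499, which is encoded within a myosin heavy chain gene of slow muscle and heart, was not lower over all cow pools. With 3 to 14 reads in a library, it was close to the lower limit of counting, like miR-133a. It was at 39.8 to 48.1 CPM in TCs at weeks 5 and 6, 33.5 and 51.5 CPM in ANCs, 40.1 and 48.0 CPM in APCs and 18.9 to 30.0 CPM in heifers. TCs at weeks 9 and 10, with 10.8 to 28.9 CPM, were at the level of heifers. Between the TC times miR-499 was lower at weeks 9 and 10 by -1.04 without overlap (SE 0.49, limma adjusted p = 0.573). This was not called, and 13.4% of the 224 miRNAs tested did not overlap in that comparison. The log2 fold change over all cow pools was 0.47 (SE 0.30, limma adjusted p = 0.397), and miR-499 was called in no comparison in which it could be tested. miR-208b, likewise encoded in a myosin gene, had 0 to 8 reads in a library and did not pass the filter on low counts. Over the 4 miRNAs of the striated muscle list that could be tested between cow pools and heifers, 2 were called lower (miR-1 and miR-206) and 0 higher, where 6.07% of all miRNAs tested were called lower, and their median log2 fold change was -0.75 against -0.03 over all miRNAs tested.

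**Figure D2:**
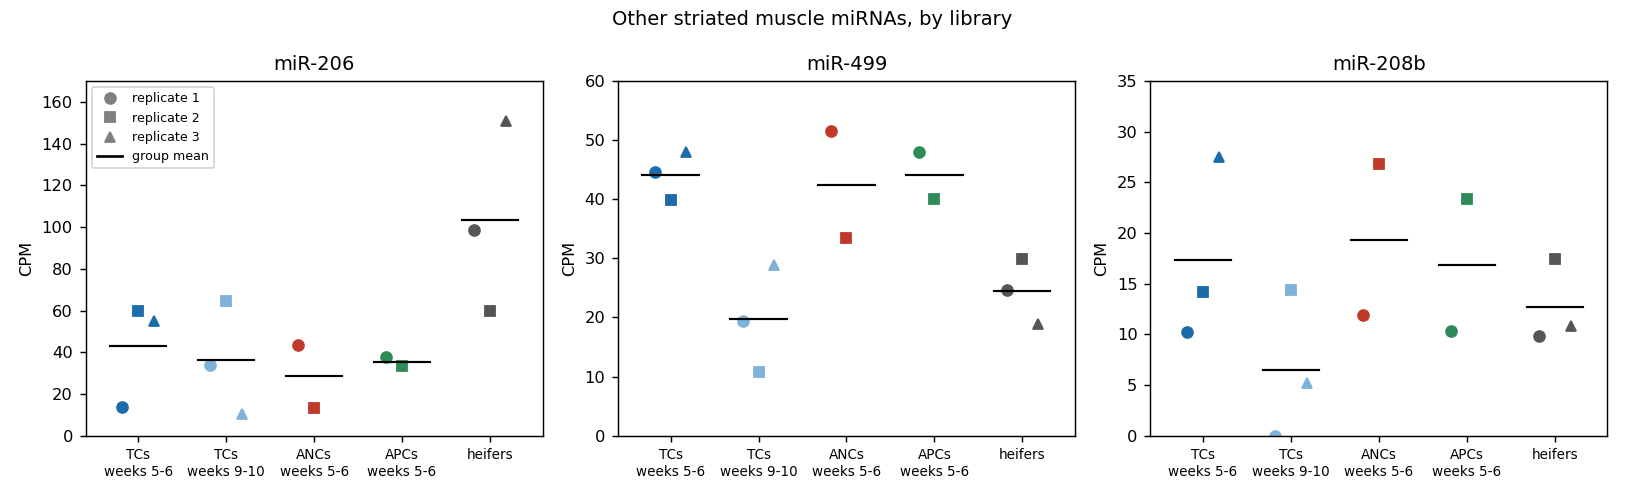
CPM of miR-206, miR-499 and miR-208b (linear axes from 0) in the 13 libraries of 5 groups, with 1 point per pool and a line at the group mean. miR-206 is highest in heifers (59.9 to 151 CPM), while miR-499 is at 33.5 to 51.5 CPM in all cow pools of weeks 5 and 6 and at 30.0 CPM or less in the other pools.

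miR-143 had the narrowest range of the members. The TC pools of weeks 5 and 6 held 39300, 38100 and 27000 CPM, and those of weeks 9 and 10 held 28500, 34600 and 26200 CPM. The ANC pools held 21400 and 28100 CPM, the APC pools 42900 and 35800 CPM and the heifer pools 35100, 39000 and 17200 CPM. The highest library was 2.49 times the lowest, compared with 5.09 times for miR-145, 5.12 times for miR-1 and 8.9 times for miR-133a. Cow pools and heifers differed by a log2 fold change of 0.13 (95% interval -0.45 to 0.72). ANCs lay below APCs without overlap, by a log2 fold change of -0.64 (SE 0.39, limma adjusted p = 0.588). In this comparison 0 of 207 miRNAs were called by limma (17 at an unadjusted p under 0.05, 0 with edgeR and 6 with DESeq2), and 43.5% did not overlap between the groups. The exact permutation test cannot go below the p = 0.333 found here with 2 pools against 2.

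miR-145 was higher in TCs at weeks 5 and 6 than in heifers. These TC pools held 2710, 2090 and 2890 CPM, and the heifer pools 1080, 1250 and 1110 CPM, without overlap. Heifer pools lay close together, with an SD of 88.8 CPM around a mean of 1150 CPM. With both groups scaled together, the means were 2555 ± 405 and 1149 ± 107 CPM (SD, n = 3 each) and the log2 fold change was 1.14 (SE 0.23, limma adjusted p = 0.133). This was called, in a comparison in which 1.74% of the miRNAs were called as higher in TCs and 22.2% did not overlap. The exact permutation p was 0.1. By unadjusted p miR-145 ranked 3rd of the 230 miRNAs. The neighbouring miR-143 had a log2 fold change of 0.26 (95% interval -0.66 to 1.17) in the same pools.

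The call for miR-145 did not hold under each alternative. Without the first TC pool the log2 fold change was 1.17 (limma adjusted p = 0.5311), without the third TC pool 1.10 (0.2818), without the first heifer pool 1.15 (0.3362) and without the second heifer pool 1.22 (0.4355). Scaling by total reads gave 0.93, just under the threshold. With all 13 libraries in 1 fit the value was 1.15 (adjusted p = 0.2853), and with a factor for the RNA measurement day it was 1.14 (adjusted p = 0.3579). With the replicate block, whose pairing was inferred from these same data, it was 1.14 (adjusted p = 0.0462). Of the other cell type markers, none of the 2 endothelial, 2 erythroid, 5 leukocyte and 6 epithelial miRNAs tested was called higher in these TCs, while 3 leukocyte miRNAs and 1 epithelial miRNA were called lower. Their part in the miR-1 and miR-145 differences was not tested.

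In the other cow groups miR-145 varied more between pools than between groups. The TC pools of weeks 9 and 10 held 1030, 2100 and 1560 CPM, all but the second below the pools of weeks 5 and 6. The ANC pools held 666 and 1840 CPM. The APC pools held 968 and 3390 CPM, the lowest but 1 and the highest of the cow libraries at weeks 5 and 6. Accordingly, 7 of 10 cow libraries lay above all heifer libraries and 3 below them, and the log2 fold change over all cow pools was 0.54 (SE 0.39, limma adjusted p = 0.424). The 3 cow libraries below the heifers were all replicate 1. Within replicate 1 the log2 difference of cows from the heifer library was 0.10, and within replicates 2 and 3 it was 0.92.

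Comparisons among cows called none of the 4 members. ANCs and TCs at weeks 5 and 6 were both in negative energy balance when sampled. Their comparison sets cows that stayed negative against cows that later recovered, and does not ask whether the members follow energy balance. Between ANCs and TCs at weeks 5 and 6, miR-145 was lower in ANCs by -1.21 (SE 0.51, limma adjusted p = 0.550), without overlap. Between the TC times, miR-145 was lower at weeks 9 and 10 by -0.74 (SE 0.34, limma adjusted p = 0.573), and the pools did not overlap when these groups were scaled together. These comparisons share the TC libraries of weeks 5 and 6. No miRNA was called between ANCs and these TCs (0 of 225, 18 at an unadjusted p under 0.05, 0 with edgeR and with DESeq2), and 27.1% did not overlap. None was called between the TC times (0 of 224, 12 at an unadjusted p under 0.05, 0 with edgeR and 1 with DESeq2), and 13.4% did not overlap. APCs against TCs at weeks 5 and 6 gave log2 fold changes between -0.43 for miR-145 and 0.24 for miR-143, with 0 of 225 miRNAs called by limma (6 at an unadjusted p under 0.05, 0 with edgeR and 1 with DESeq2) and 15.1% not overlapping.

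All 5 libraries of negative energy balance are from weeks 5 and 6, whereas 3 of the 5 of positive energy balance are from TCs at weeks 9 and 10, so that energy balance and time after calving cannot be told apart for the TCs, in this contrast and in the interaction given after it. The TC pools of both times may hold fluid of the same cows, which the sources used here do not state. Over all cow libraries, negative against positive energy balance gave log2 fold changes of 0.20 for miR-1 (95% interval -0.41 to 0.80), -0.11 for miR-133a (-1.16 to 0.93), -0.23 for miR-143 (-0.80 to 0.34) and 0.03 for miR-145 (-0.80 to 0.86). Of the 247 miRNAs, 0.405% were called and 0% did not overlap. The difference between negative and positive energy balance was then compared between transient and constant cows. For miR-145 this interaction was 1.47 (SE 0.76, limma adjusted p = 0.301) and for miR-143 it was 0.90 (SE 0.53, limma adjusted p = 0.365), and no member was called, whereas 16.2% of the miRNAs were. A test of any difference among the 5 groups called 2.02% of the miRNAs and no member, with miR-1 nearest to the threshold (limma adjusted p = 0.267).

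**Figure D3:**
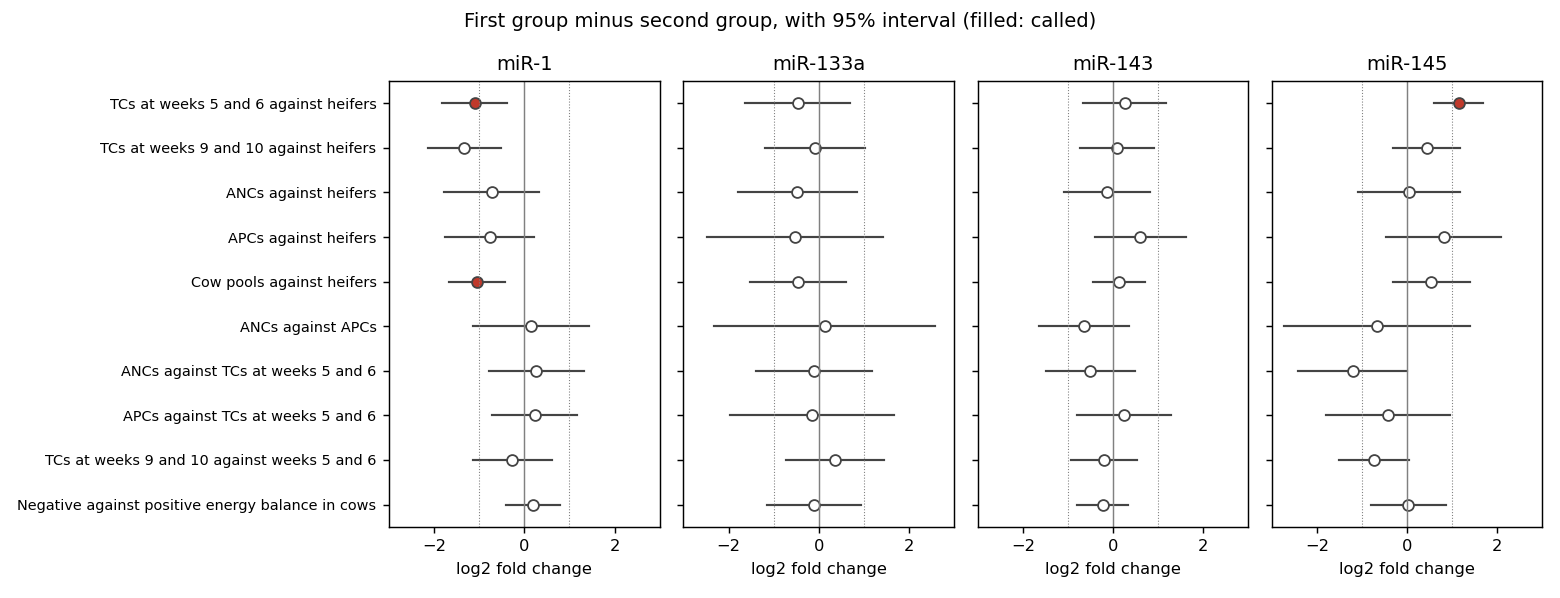
log2 fold change on the log2(CPM + 5) scale (point) with its 95% interval (line) for each of the 4 members in 10 comparisons, with filled points for called miRNAs and dotted lines at the threshold of 1. miR-1 is below 0 in all 5 comparisons with heifers and called in 2 of them, and miR-145 is called at 1.14 in TCs at weeks 5 and 6 against heifers.

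Ordered by group means, miR-1 was highest in heifers (578 CPM), followed by ANCs (331), APCs (295), TCs at weeks 5 and 6 (260) and TCs at weeks 9 and 10 (218). Only the first neighbours in this order, heifers and ANCs, did not overlap (exact permutation p = 0.1, the smallest possible). This was with all 13 libraries scaled together. Scaled on their own, heifers and ANCs overlapped in miR-1, in a comparison in which 47.4% of 215 miRNAs did not overlap. miR-145 was highest in TCs at weeks 5 and 6 (2560 CPM), followed by APCs (2180), TCs at weeks 9 and 10 (1560), ANCs (1250) and heifers (1150). miR-143 ran from APCs (39300 CPM) over TCs at weeks 5 and 6 (34800), heifers (30400) and TCs at weeks 9 and 10 (29800) to ANCs (24700). For miR-133a the order was heifers (56.9 CPM), TCs at weeks 9 and 10 (48.0), APCs (44.5), TCs at weeks 5 and 6 (37.5) and ANCs (34.0). No neighbours in the orders of miR-145, miR-143 and miR-133a differed beyond the spread of their pools.

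A ratio of the reads of neighbouring miRNAs within a library does not depend on the scaling between libraries. The log2 ratios that were tested are of CPM + 5, so they still depend on it in part. This dependence is largest where a miRNA has few reads, as miR-133a does. miR-143 had 9.36 to 44.3 reads for each read of miR-145. The ratio was lowest in the third TC pool of weeks 5 and 6 and highest in the first APC pool. In the second APC pool it was 10.6, so that both ends of the range were nearly reached within APCs. The 3 TC pools of weeks 5 and 6 stood at 14.5, 18.2 and 9.36, and the heifer pools at 32.4, 31.2 and 15.5. On the log2 scale the ratio averaged 4.19 ± 0.70 in cow libraries (SD, n = 10) and 4.64 ± 0.60 in heifer libraries (SD, n = 3), with an exact permutation p of 0.325.

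miR-1 had 4.17 to 29.6 reads for each read of miR-133a, and the highest ratios, 29.6 in the third heifer pool and 26.0 in the second APC pool, stood on 10 and 3 reads of miR-133a. The TC pools of weeks 9 and 10 were close together at 4.57, 4.81 and 4.25. The log2 ratio averaged 2.65 ± 0.70 in cow libraries (SD, n = 10) and 3.32 ± 1.18 in heifer libraries (SD, n = 3), with an exact permutation p of 0.196. Differences in both ratios between negative and positive energy balance did not pass the test (exact permutation p = 0.5 and 0.484), and the adjusted p of all 4 tests was 0.5.

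**Figure D4:**
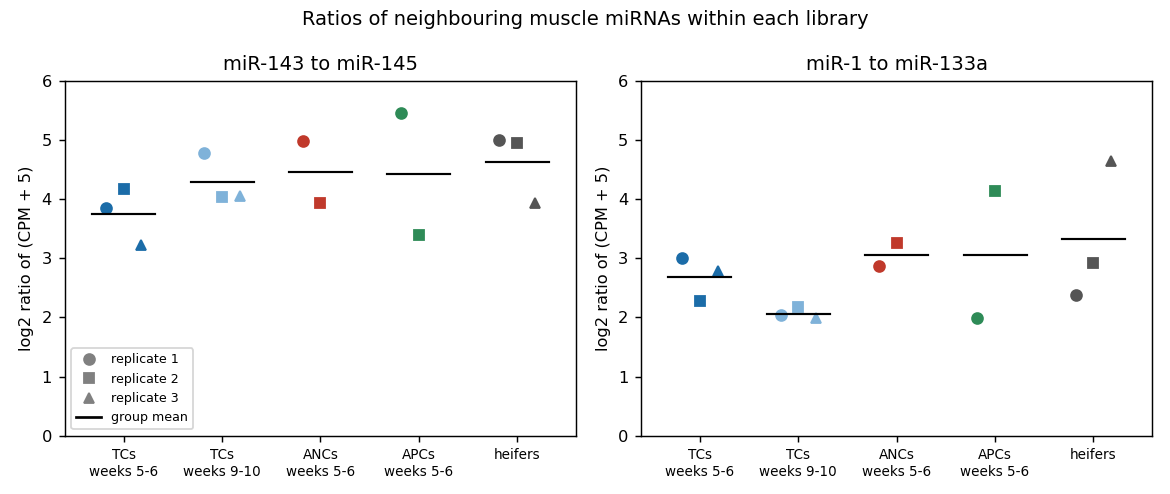
log2 ratio of (CPM + 5) within each library for miR-143 to miR-145 and for miR-1 to miR-133a, with 1 point per pool in 5 groups and a line at the group mean. The read ratio of miR-143 to miR-145 spans 9.36 to 44.3 and that of miR-1 to miR-133a 4.17 to 29.6, with overlap between cows and heifers in both.

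Correlations among the members over the 13 libraries were weak. miR-143 and miR-145 had a Pearson r of 0.34 (permutation p = 0.255) and a Spearman rho of 0.16 (permutation p = 0.591), and r was -0.10 without the 2 libraries farthest from the median of miR-143. miR-1 and miR-133a had r = 0.20 (permutation p = 0.504) and rho = 0.31 (permutation p = 0.297), and r was 0.51 without the 2 libraries farthest from the median of miR-1. By Pearson r the strongest of the 6 pairs was miR-133a with miR-145, at r = -0.41 (permutation p = 0.165) and rho = -0.33 (permutation p = 0.271). For this pair r was -0.03 without the 2 libraries farthest from the median of miR-133a. By rho the strongest pair was miR-133a with miR-143, at rho = 0.38 (permutation p = 0.195) and r = 0.34 (permutation p = 0.248). Without the same 2 libraries its r was 0.65. None of the 6 pairs passed the correction, with adjusted p-values of 0.509 or more for r and 0.594 or more for rho.

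The miRNAs most like each member were named from Pearson's r over the 13 libraries among 247 miRNAs, as a description, since all libraries share their pools, depth and scaling. miR-1 was most like miR-204 (r = 0.83), miR-369-5p (0.73) and miR-183 (0.71). miR-204 was at 37.0 to 114 CPM in cows and at 127 CPM or more in heifers, without overlap, as for miR-1. miR-206 took the 11th place with r = 0.54, and miR-499 the 188th with -0.21. miR-145 was most like miR-27a-3p (r = 0.85), miR-130b (0.83) and miR-2285t (0.82). miR-27a-3p stood at 970 to 1080 CPM in TCs at weeks 5 and 6, 645 and 1600 CPM in APCs, 269 and 556 CPM in ANCs and 592 to 695 CPM in heifers. On deviations from the group means, r between miR-145 and miR-27a-3p was 0.90, and between miR-1 and miR-204 it was 0.58. miR-143 was most like miR-199a-3p (r = 0.65), miR-1388-5p (0.59) and miR-10b (0.57), and miR-133a most like miR-2346 (0.74), miR-378b (0.68) and miR-149-5p (0.68). Neither genomic neighbour was thus among the 3 miRNAs most like a member.

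**Figure D5:**
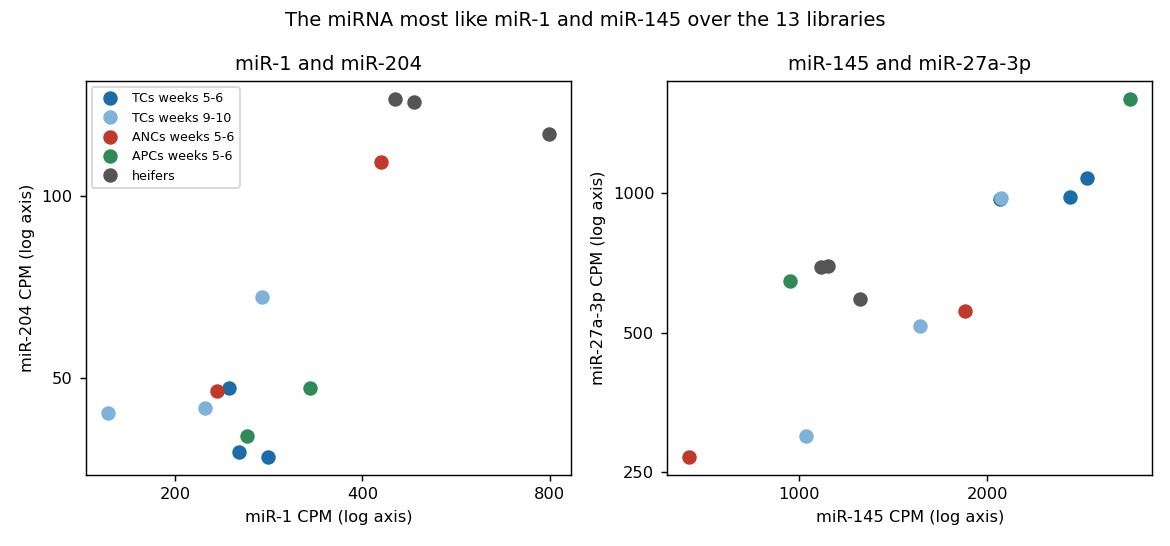
CPM of miR-1 against miR-204 and of miR-145 against miR-27a-3p (log axes), with 1 point per library coloured by group. The 3 heifer libraries lie above all cow libraries for both miR-1 and miR-204, while for miR-145 and miR-27a-3p (r = 0.85) pools of 1 group, such as the APCs with 645 and 1600 CPM of miR-27a-3p, spread along the relation.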

How the data were processed

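EV small RNA of 13 pools was sequenced, and groups and replicate numbers were taken from the labels. After library preparation with a QIAseq kit, the authors removed adaptors (Cutadapt 1.11) and aligned reads to UMD3.1 (Bowtie2 2.2.2), naming miRNAs by miRBase. Whether molecular identifiers were collapsed is not given in the sources used here. The deposited values are CPM on a linear scale after TMM normalization by the authors. Where a library's deposited total was above that of plain CPM, its values were treated as a signal.

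Each library's deposited values are multiples of what 1 read is worth, which gave its reads, and 3681 of 3681 values came out within 0.1 read of a whole number. A stricter test of the low values, which asks for 100 of them per library, was passed by the other libraries but not by 6, which hold 84 to 99 values of 1 to 20 reads, all of them whole. The rule of that test would leave out count tests for these 6 libraries. They were nevertheless kept in the edgeR and DESeq2 alternatives, which should be read with this in mind, and the recovered reads of all 13 libraries also underlie the scaling and filter of the main test.

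Libraries compared were scaled together with TMM (edgeR 4.0.16), filtered with filterByExpr (minimum count 10, minimum total 15) and tested with limma 3.58.1 with a mean-variance trend on log2(CPM + 5), with Benjamini-Hochberg adjustment over all miRNAs tested. Joint fits used the 262 miRNAs listed for all groups. Single values were compared with exact two-sided permutation tests, correlations with 100000 permutations. The fits were tested on simulated data. Alternatives were a pseudocount of 1 CPM, no filter, total reads, edgeR's quasi-likelihood test, DESeq2 1.42.0, 1 fit of all libraries, the deposited values, the replicate number as a block, the day of RNA measurement and leaving out each library. The replicate numbers come from the labels. Between TCs at weeks 5 and 6 and heifers, pools of the same number deviated together from their group means (r = 0.19, 0.37 and 0.37 over miRNAs). The numbers were therefore taken to pair these pools, which the labels do not state. No other comparison had 3 or more pairs that all did so. ANCs and APCs, with r = 0.25 in both pairs, have only 2 pairs, too few for this to count as pairing. The members and lists were chosen with earlier results of these data known. Named miRNAs are the members, the muscle list, the 3 miRNAs most like each member and, beside a result, the marker lists.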

Additional observations from a re-analysis of the deposited data

How the results depend on the processing

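The small number of pools limits these results, and so do the few reads of miR-133a, miR-206, miR-499 and miR-208b. How much of their spread is counting error was not tested. None of the members called in a comparison changed direction under any alternative that was run for it. Over its alternatives the adjusted p of miR-1 ran from 0.06995 to 0.5373 in TCs at weeks 5 and 6 against heifers and from 0.06935 to 0.3994 in all cow pools against heifers, and that of miR-145 in TCs at weeks 5 and 6 against heifers from 0.003464 to 0.5311. Members that were not called often had fold changes near 0, whose sign turned. The cause was not tested in any of these cases, other than that a fit without a library has fewer samples.

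With total reads in place of TMM, 26 miRNAs were called in TCs at weeks 5 and 6 against heifers (1 member, since miR-145 was at 0.93), 6 in TCs at weeks 9 and 10 (1 member, miR-1) and 63 in APCs (1 member, miR-1) against heifers, 62 for the interaction and 54 among the 5 groups (1 member). The same scale turned uncalled values to -0.04 for miR-145 in ANCs against heifers, 0.10 for miR-133a in ANCs against TCs, -0.04 for miR-1 and -0.03 for miR-143 in APCs against TCs, 0.04 for miR-143 between the TC times, -0.02 for miR-143 in all cow pools and -0.52 for miR-1 in the interaction. The deposited values gave 49 calls and 1 member (miR-1) in APCs against heifers, and -0.21 for miR-145 in ANCs against heifers. Both scales moved the median log2 fold change of all miRNAs, and values are to be read relative to it. Total reads moved it by -0.21 in TCs at weeks 5 and 6, -0.57 in APCs and -0.14 in all cow pools against heifers, 0.40 in ANCs against APCs, 0.23 in ANCs and -0.26 in APCs against TCs, 0.22 between the TC times and -0.65 in the interaction, and the deposited values moved it by -0.25 in ANCs and -0.34 in APCs against heifers. Calls split into 22 higher and 7 lower in APCs against heifers, but into 14 and 49 with total reads and 21 and 28 with the deposited values. In ANCs against heifers 14 were higher and 26 lower, but 4 and 41 with the deposited values, and in the interaction 21 and 19, but 10 and 52 with total reads. With 1 fit of all 13 libraries, miR-145 in TCs at weeks 5 and 6 was at 1.15 and uncalled (1 member left), 4 miRNAs and 1 member (miR-1) were called in TCs at weeks 9 and 10 against heifers, and miR-145 in ANCs against heifers was at -0.05.

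DESeq2 called 36 miRNAs (23 higher and 13 lower, against 4 and 12) in TCs at weeks 5 and 6 and 14, with 1 member, in TCs at weeks 9 and 10 against heifers, 6 in ANCs against APCs, 1 in APCs against TCs and 1 between the TC times. It gave -0.02 for miR-143 in TCs at weeks 9 and 10 against heifers, -0.46 for miR-133a in ANCs against APCs and 0.30 for it in APCs against TCs. With edgeR these values of miR-133a were -0.40 and 0.28, miR-133a was at 0.08 in the interaction, miR-145 was at -0.04 for energy balance, and 0 miRNAs were called for energy balance. Without a filter or with a pseudocount of 1 CPM, 0 miRNAs were called among the 5 groups. With a factor for the RNA measurement day, 0 miRNAs and 0 members were called in TCs at weeks 5 and 6 against heifers, with miR-1 at -1.10 and miR-145 at 1.14.

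The replicate block gave 29 calls in TCs at weeks 5 and 6 against heifers. Elsewhere the numbers were not taken to pair the pools. There the block gave 65 calls in ANCs and 7 in TCs at weeks 9 and 10 against heifers (1 member, miR-1), 28 in ANCs against APCs, 2 in ANCs against TCs, 0 for energy balance, 70 among the 5 groups with 1 member, and 1 member for the interaction. It ended no call of a member.

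Without 1 library, calls ranged widely. In TCs at weeks 5 and 6 against heifers, 0 (without TC replicate 1) to 46 (without TC replicate 2) miRNAs and 0 to 2 members were called, with miR-1 from -1.24 to -0.85, miR-143 from -0.12 to 0.49 and miR-145 from 1.10 to 1.42. In all cow pools against heifers, 0 (without heifer replicate 2) to 35 (without heifer replicate 3) miRNAs and 0 to 1 members were called, with miR-1 from -1.18 to -0.80 and miR-143 from -0.24 to 0.38. In TCs at weeks 9 and 10 against heifers, 0 to 25 miRNAs and 0 to 1 members were called, with miR-133a from -0.49 to 0.25 and miR-143 from -0.27 to 0.34. Here miR-1 was called without TC replicate 2 (-1.49). In ANCs against heifers, 0 (without ANC replicate 1) to 54 miRNAs and 0 to 1 members were called, with miR-143 from -0.48 to 0.14 and miR-145 from -0.72 to 0.85. Here miR-1 was called without ANC replicate 2 (-1.19). In APCs against heifers, 3 (without heifer replicate 1) to 48 (without APC replicate 1) miRNAs and 0 to 2 members were called, with miR-133a from -1.82 to 0.76 and miR-145 from -0.05 to 1.67. The lower end for miR-133a and the upper end for miR-145, both called, were without APC replicate 1.

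In ANCs against APCs, 0 to 36 miRNAs and 0 to 1 members were called, with miR-1 from -0.30 to 0.59, miR-133a from -1.13 to 0.37 and miR-145 from -1.53 (called, without APC replicate 1) to 0.19. In ANCs against TCs, 0 to 7 miRNAs and 0 to 1 members were called, with miR-1 from -0.24 to 0.79 and miR-133a from -0.40 to 0.21. The member was miR-145 without ANC replicate 2 (-2.02). In APCs against TCs, 0 to 4 miRNAs were called, with miR-133a from -1.36 to 1.07 and miR-145 from -1.34 to 0.48. Between the TC times, 0 to 22 miRNAs were called, with miR-1 from -0.42 to 0.01. For energy balance, 0 to 4 miRNAs were called, with miR-1 from -0.02 to 0.40, miR-133a from -0.81 to 0.49 and miR-145 from -0.44 to 0.40. For the interaction, 0 to 61 miRNAs and 0 to 1 members were called, with miR-1 from -0.22 to 0.60 and miR-133a from -1.75 to 0.85. The member was miR-145, without ANC replicate 2 (2.2) or APC replicate 1 (2.32). Among the 5 groups, 0 to 47 miRNAs and 0 to 1 members (miR-1) were called. The correlation of miR-1 with miR-143 ran from -0.33 to 0.41, the upper end without heifer replicate 3.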
